A study of Mus musculus with 75 samples.

Results

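The genes described here carry a cell through DNA replication and mitosis. A list of 50 such genes was fixed by name and not by level, with earlier results of these data known. It held 19 genes that act in G1 and S phase and 31 that act in mitosis. Of these, 42 were represented by a probe set with a single gene symbol, among 19147 such genes in all. The 17 measured S phase genes were Ccnd1, Ccne1, Cdc45, Cdc6, Cdt1, E2f1, E2f8, Mcm2, Mcm3, Mcm4, Mcm5, Mcm6, Mcm7, Rrm1, Rrm2, Tk1 and Tyms. The 25 measured mitosis genes were Anln, Aurka, Aurkb, Birc5, Bub1, Bub1b, Ccna2, Ccnb2, Cdc20, Cdk1, Cenpe, Cenpf, Kif11, Kif23, Kif2c, Melk, Ndc80, Nusap1, Plk1, Prc1, Racgap1, Top2a, Tpx2, Ttk and Ube2c. Ccne2, Pcna, Mki67, Ccnb1, Kif20a, Nuf2, Spc24 and Foxm1 were not analysed here. Each gene was followed through its brightest probe set in the tissue; 31 of the 42 had only 1.

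Expression was measured on 75 one-colour microarrays, 39 of liver and 36 of epididymal white fat, in male mice on a C57BL/6 background. Mice homozygous for loss of the cannabinoid receptor 1 gene, labelled CB1R-/- and here called knockouts, were compared with littermate controls, here called wild-type. Feeding began at 2 months of age and lasted 14 weeks, on chow (13% of calories as fat) or on high-fat food (59.4%). Each mouse then received by oral gavage, on 2 days, either methylcellulose vehicle or AM251, an inverse agonist of the receptor, at 10 mg per kg, and tissue was taken on the morning of day 3. The labels restrict the deletion to no tissue or cell type. Tissue, diet, genotype and treatment gave 16 groups of 3 to 5 arrays. In fat, high-fat-fed knockouts on vehicle and chow-fed knockouts on AM251 had 3 arrays each; in liver, high-fat-fed knockouts on vehicle had 4; all other groups had 5.

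Entry into S phase is driven by D-type and E-type cyclins, which free E2F transcription factors from pocket proteins. E2F targets include the MCM helicase, its loaders Cdc6 and Cdt1, and the enzymes that make deoxynucleotides. Genes of G2 and mitosis come on later, largely through CHR and CCAAT promoter elements bound by DREAM and B-MYB-FOXM1 complexes and by NF-Y. Mature fat cells and most hepatocytes of an adult mouse are not dividing, while macrophages, endothelial cells and progenitors in fat can divide.

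Promoters of the 2 classes held different motifs, a feature that played no part in choosing the genes. RefSeq promoter windows (assembly GRCm38.p6, 250 bases before to 50 after the gene start) were at hand for 37 of the 42 genes, in 39 windows. Motifs were searched on both strands. The E2F motif was searched in 4 forms, of which TTCCCGC was the first, TTCGCGC was the second, TTGCCGC was the third and TTGGCGC was the fourth. An E2F motif was present in 10 of 16 S phase windows (62.5%), in 1 of 23 mitosis windows (4.35%) and in 12.4% of the 18760 windows of the other genes on the array. The CHR motif TTTGAA was present in 18 of 23 mitosis windows (78.3%), in 3 of 16 S phase windows (18.8%) and in 14.9% of windows of other genes. The CCAAT box (CCAAT) was found in 73.9% of mitosis windows, 62.5% of S phase windows and 37.4% of windows of other genes. Over all 32851 RefSeq windows the shares were 9.57% for E2F, 17.9% for CHR and 37.4% for CCAAT. Many CHR matches lay after the gene start: with the 250 bases before the start alone, the share of mitosis windows with CHR was 34.8%, against 13.3% of other genes. Motifs of different kinds may overlap, and a match describes letters in the window, not a bound site.

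The 7 stretches below show these arrangements for genes whose values the results turn on; each is the 180 bases directly before the gene start, 5′ to 3′ on the gene's strand, with E2F, CHR and CCAAT matches in capitals, counted from -1 at the last base shown. Mitosis genes come first. Cdk1 has E2F matches at -178 and -130 besides CCAAT and CHR, Top2a has CHR matches at -179 and -23 with 4 CCAAT boxes, Ube2c has CHR at -29, and Ccnb2 has 3 CCAAT boxes at -87, -54 and -21. The S phase genes Mcm5 and Mcm6 have overlapping pairs of E2F matches, and E2f8 has an E2F match that overlaps a CCAAT box and a CHR match at -20.
Cdk1 (chr10:69352913-69353092, minus strand): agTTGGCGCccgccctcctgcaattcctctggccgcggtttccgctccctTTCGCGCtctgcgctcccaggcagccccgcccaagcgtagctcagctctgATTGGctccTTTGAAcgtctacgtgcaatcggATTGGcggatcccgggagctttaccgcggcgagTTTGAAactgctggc
Top2a (chr11:99024190-99024369, minus strand): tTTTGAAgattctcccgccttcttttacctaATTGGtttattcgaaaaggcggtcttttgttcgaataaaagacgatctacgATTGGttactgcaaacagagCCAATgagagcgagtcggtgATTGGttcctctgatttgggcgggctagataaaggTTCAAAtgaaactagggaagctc
Ube2c (chr2:164769749-164769928, plus strand): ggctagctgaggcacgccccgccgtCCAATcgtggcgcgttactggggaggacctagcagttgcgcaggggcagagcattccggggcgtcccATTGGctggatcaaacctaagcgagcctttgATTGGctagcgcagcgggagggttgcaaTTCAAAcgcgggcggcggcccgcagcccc
Ccnb2 (chr9:70421555-70421734, minus strand): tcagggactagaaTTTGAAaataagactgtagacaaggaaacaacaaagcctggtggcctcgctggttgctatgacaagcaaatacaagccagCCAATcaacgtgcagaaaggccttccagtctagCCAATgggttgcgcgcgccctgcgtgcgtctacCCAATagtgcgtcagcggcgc
Mcm5 (chr8:75109329-75109508, plus strand): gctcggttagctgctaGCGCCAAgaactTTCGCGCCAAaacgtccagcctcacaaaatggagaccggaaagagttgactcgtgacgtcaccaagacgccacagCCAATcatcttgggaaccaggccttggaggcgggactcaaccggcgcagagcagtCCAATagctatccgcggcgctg
Mcm6 (chr1:128359706-128359885, minus strand): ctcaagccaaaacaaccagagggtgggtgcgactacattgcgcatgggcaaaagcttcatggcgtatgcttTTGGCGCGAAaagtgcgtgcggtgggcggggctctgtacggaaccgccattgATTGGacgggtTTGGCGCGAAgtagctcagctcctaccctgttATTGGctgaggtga
E2f8 (chr7:48881597-48881776, minus strand): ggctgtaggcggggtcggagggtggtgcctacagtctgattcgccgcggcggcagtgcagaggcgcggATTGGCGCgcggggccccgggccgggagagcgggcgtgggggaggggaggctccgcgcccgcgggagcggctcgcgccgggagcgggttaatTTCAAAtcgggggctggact

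Values are log2 of the deposited intensities. A gene was called higher or lower where its adjusted p (limma, Benjamini-Hochberg over all 19147 genes, two-sided) was under 0.05, and changes are log2 differences ± standard error. Median intensity was 25.85 to 28.67 on liver arrays and 44.29 to 48.04 on fat arrays, so levels were compared within a tissue only. Hepatocyte markers (8 measured) summed to between 105200 and 121500 intensity units on every liver array, and adipocyte markers (9 measured) to between 69990 and 88130 on every fat array. On 4 fat arrays the sum of 7 epididymis or 9 testis markers was at least 1056, while the other arrays had 298 to 548 units for epididymis and 286 to 777 for testis: chow wild-type vehicle 5, high-fat wild-type vehicle 3, and high-fat wild-type AM251 36 and 37, with 12180 units for epididymis on array 36. Counts without these 4 are given below. The Cnr1 probe set overlapped between genotypes, at 5.03 to 8.02 on 20 fat arrays labelled wild-type and 4.95 to 7.33 on 16 labelled knockout. Its position relative to the deleted part is not given in the sources used here, so genotype labels were used as given.

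Among the 8 fat groups, cell cycle genes had their highest class means in wild-type mice on the high-fat diet. The mean over the 25 mitosis genes was 5.98 ± 0.27 (SD, n = 5) in high-fat wild-type vehicle fat and 5.77 ± 0.29 (SD, n = 5) after AM251, and between 5.20 and 5.29 in the other 6 fat groups. The mean over the 17 S phase genes was 7.19 ± 0.22 (SD, n = 5), 6.90 ± 0.25 (SD, n = 5) and between 6.53 and 6.63 in the same order. All 5 high-fat wild-type vehicle arrays, at 5.64 to 6.31 for mitosis genes, lay above every array of the 6 other groups, whose highest was 5.50. The lowest AM251 array, at 5.40, did not. In liver the group means were 4.38 to 4.51 for mitosis genes and 5.59 to 5.72 for S phase genes.

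**Figure D1:**
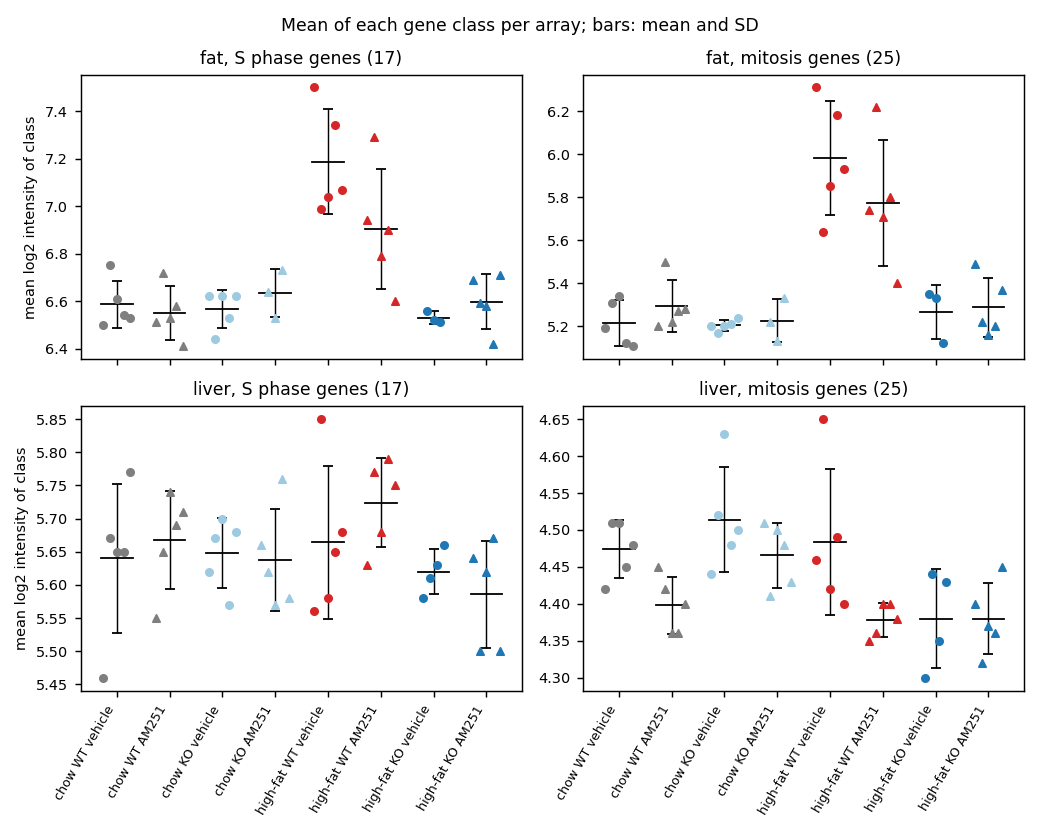
Mean log2 intensity of the 17 S phase genes (left) and 25 mitosis genes (right) on every array of fat (top) and liver (bottom), by diet, genotype and treatment (circles vehicle, triangles AM251), with group mean and SD; each panel has its own scale. In fat only the high-fat wild-type groups are raised, at 5.98 and 5.77 for mitosis genes, while liver group means span 4.38 to 4.51.

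In wild-type fat on vehicle, the high-fat diet raised 33 of the 42 genes and lowered 0; of all genes tested, 12.1% were called higher. Mitosis genes rose in 22 of 25 cases (median change 0.78) and S phase genes in 11 of 17 (median 0.42), beside a median of 0.02 over all genes. For 28 of the 42 genes every high-fat array lay above every chow array, which was so for 8.02% of all genes. The comparison asks how diet alone changes these genes in mice with the receptor. The diet counts ran from 30 to 34 when single arrays were left out, and 34 genes were called without the 4 arrays with epididymis or testis markers. In bulk tissue, more dividing cells and more of these RNAs per cell cannot be told apart.

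Among S phase genes the largest changes were in enzymes of nucleotide supply and in the replication helicase. Tk1, thymidine kinase of the salvage pathway, read 8.57, 7.31, 7.68, 8.24 and 7.95 on high-fat arrays and 6.34, 6.63, 6.47, 6.45 and 6.12 on chow arrays, a rise of 1.55 ± 0.19 (limma adjusted p = 1.13e-06). The groups did not overlap. Rrm2, the regulated subunit of ribonucleotide reductase, read 6.15, 5.75, 5.52, 6.45 and 5.85 against 4.38, 4.46, 4.78, 4.51 and 4.75 and rose by 1.37 ± 0.18 (limma adjusted p = 1.93e-06). Its partner subunit Rrm1 rose by 0.38 ± 0.10. Of the MCM helicase subunits, Mcm6 rose by 1.30 ± 0.20, Mcm5 by 1.05 ± 0.17, Mcm3 by 0.86 ± 0.16, Mcm2 by 0.76 ± 0.17 and Mcm4 by 0.42 ± 0.084, all called, while Mcm7 was at 0.01 ± 0.096. Mcm6 read 8.33, 7.77, 7.85, 8.24 and 7.73 on high-fat arrays and 6.70, 6.87, 6.88, 6.29 and 6.68 on chow arrays, again without overlap, and its second probe set moved from 4.90 to 6.00. Cdt1, the helicase loader, rose by 1.27 ± 0.27 with a wide spread of 6.65 to 8.01, its lowest array just above the highest chow array at 6.58. The other loader, Cdc6, was at 0.15 ± 0.083 (limma adjusted p = 0.211).

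Of the regulators of S phase entry, 2 rose and 2 were not called. Ccne1, the cyclin E that activates CDK2, read 7.21, 6.84, 7.10, 7.21 and 7.39 against 6.56, 6.56, 6.80, 6.71 and 6.48 and rose by 0.53 ± 0.11 (limma adjusted p = 0.000384). E2f1, an activating E2F, rose by 0.40 ± 0.12. Ccnd1, the D-type cyclin that links growth factor signals to CDK4, was at 0.05 ± 0.17 (limma adjusted p = 0.867), and its 2 probe sets differed: the other went from 9.75 ± 0.26 to 9.38 ± 0.52 (SD, n = 5 each), so that the mean of both gave -0.16. E2f8, an atypical E2F that represses, was at 0.02 ± 0.096 on the brightest probe set and went from 4.94 ± 0.17 to 5.49 ± 0.35 (SD, n = 5 each) on the other. Cdc45, a helicase cofactor, at -0.07 ± 0.14, and Tyms, thymidylate synthase, at 0.17 ± 0.084, were not called.

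The mitosis genes rose as a broad group covering entry into mitosis, the spindle, its checkpoint and cytokinesis. Ccnb2, a B-type cyclin partner of CDK1, read 7.81, 6.31, 6.73, 7.42 and 6.76 on high-fat arrays and 5.30, 5.75, 5.57, 5.13 and 5.15 on chow arrays. Its rise of 1.62 ± 0.26 (limma adjusted p = 1.91e-05) was the largest of the 42. Cdk1, the kinase that starts mitosis, read 8.38, 7.35, 7.66, 8.45 and 7.98 against 6.38, 6.68, 6.82, 6.48 and 6.42 and rose by 1.41 ± 0.20 (limma adjusted p = 6.22e-06). The other Cdk1 probe set, dimmer at 4.65 and 4.76, showed little of this. Ccna2, cyclin A, which serves both S phase and G2, rose by 1.29 ± 0.21. Top2a, which untangles replicated DNA, read 4.56, 4.19, 4.39, 4.53 and 4.68 against 3.74, 3.93, 3.92, 3.79 and 3.85, a smaller rise of 0.62 ± 0.10 (limma adjusted p = 3.56e-05) with no overlap.

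Ube2c, the ubiquitin-conjugating enzyme of the anaphase-promoting complex, rose by 1.31 ± 0.20 and its activator Cdc20 by 0.78 ± 0.17. Of mitotic kinases, Plk1 rose by 0.96 ± 0.13, Aurkb by 0.84 ± 0.19, Aurka by 0.45 ± 0.11 and Melk by 0.32 ± 0.12. The spindle checkpoint kinases Ttk, Bub1b and Bub1 rose by 0.90 ± 0.19, 0.81 ± 0.15 and 0.77 ± 0.14. Genes of the central spindle and cytokinesis followed, with Racgap1 at 1.23 ± 0.21, Kif23 at 1.03 ± 0.17, Prc1 at 0.58 ± 0.092 and Anln at 0.42 ± 0.15. Racgap1 and Kif23 form the centralspindlin complex, and none of their high-fat arrays overlapped the chow arrays. The spindle proteins Tpx2, Kif2c and Kif11 rose by 1.00 ± 0.17, 0.80 ± 0.16 and 0.43 ± 0.12, and the survivin gene Birc5 and centromere protein gene Cenpf by 0.46 ± 0.092 and 0.48 ± 0.11. The kinetochore genes Cenpe (0.32 ± 0.13, limma adjusted p = 0.0777) and Ndc80 (0.29 ± 0.12, 0.065) and the spindle gene Nusap1 (0.03 ± 0.14) were not called.

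**Figure D2:**
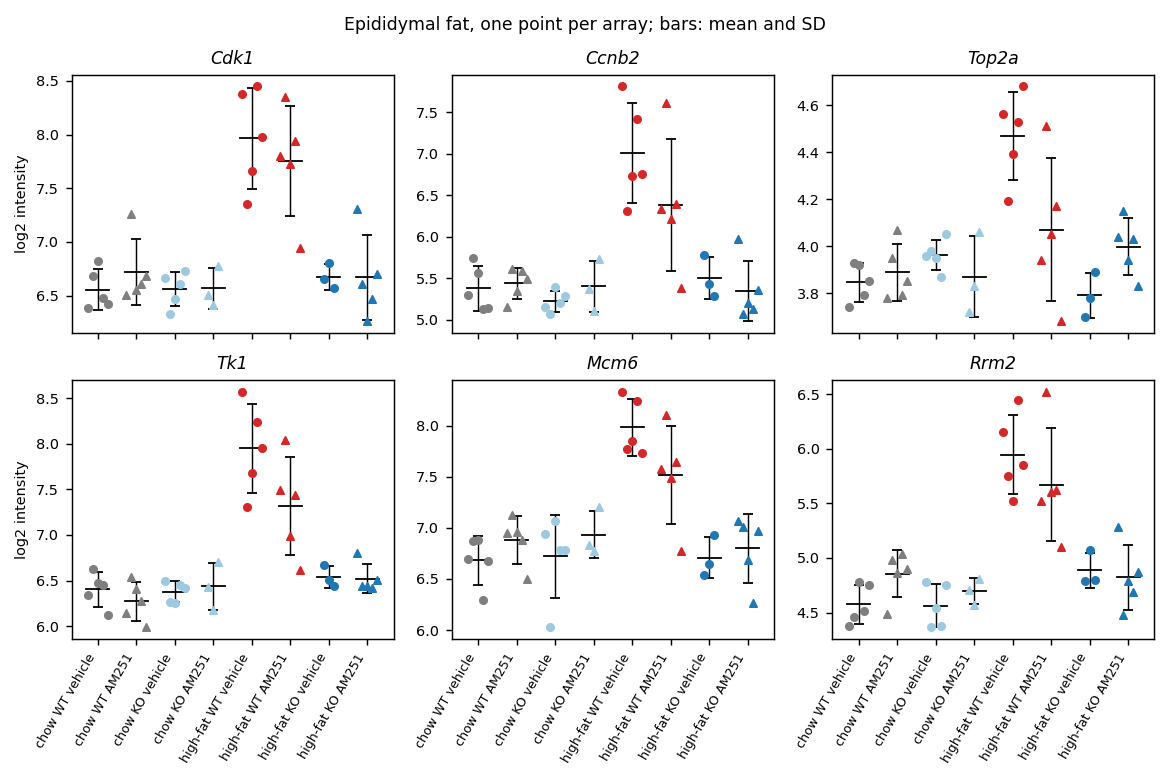
Log2 intensity of Cdk1, Ccnb2, Top2a, Tk1, Mcm6 and Rrm2 on every fat array by diet, genotype and treatment (circles vehicle, triangles AM251), with group mean and SD; scales differ between panels. High-fat wild-type vehicle arrays lie above chow wild-type vehicle arrays for all 6 genes, as with Ccnb2 at 6.31 to 7.81 against 5.13 to 5.75, while no diet change was called in knockouts; Rrm2 on the 3 high-fat knockout vehicle arrays, at 4.79 to 5.07, lies just above the chow vehicle arrays.

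Other genes of the same processes, outside the 50, also rose in this comparison. Of 23 measured other DNA replication genes 13 rose and 0 fell (median 0.43), led by Dbf4, the activating subunit of the CDC7 kinase, at 1.26 ± 0.19, and Gmnn, the CDT1 inhibitor geminin, at 1.28 ± 0.22, then Chaf1b at 0.63 ± 0.12 and Dnmt1 at 0.72 ± 0.14. Of 32 other mitosis genes 21 rose and 0 fell (median 0.60), among them Trip13 at 0.94 ± 0.14, Ckap2 at 1.27 ± 0.18, the kinetochore gene Spc25 at 2.07 ± 0.30 and Cenpn at 0.94 ± 0.14. Inhibitors and pocket proteins were divided, with 5 of 17 higher and 2 lower: Gadd45b (1.37 ± 0.22), Gadd45a (0.79 ± 0.19), Ccng1 (0.64 ± 0.16) and Cdkn1a, which encodes the CDK inhibitor p21 (1.01 ± 0.31), rose. Of 17 other G1 regulators 5 rose and 2 fell; the repressor-type E2F genes E2f5 and E2f4 fell by 0.33 ± 0.078 and 0.40 ± 0.099, and E2f7 and Skp2 rose by 0.39 ± 0.10 and 0.50 ± 0.15.

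Macrophage markers moved with the cell cycle genes. In the same comparison 11 of 14 macrophage markers rose and 0 fell (median 0.84), and 9 of 11 lipid-associated macrophage markers rose and 1 fell (median 2.62), with Trem2 at 3.5 ± 0.47 and Itgax at 3.17 ± 0.40. The macrophage sum was 9818 to 13710 units in chow wild-type vehicle fat and 17630 to 35900 in high-fat wild-type vehicle fat. Among the 5 high-fat arrays, array 1 had the highest macrophage sum (35900) and mitosis mean (6.31), array 5 followed in both (29390 and 6.18), and array 3 was lowest in both (17630 and 5.64). Of the 42 genes 30 were highest on array 1 and 24 lowest on array 3, the array with 1131 units of testis and 1997 of epididymis markers. Mesothelial markers fell in 5 of 8 cases; T and NK cell markers rose in 2 of 11, B cell markers in 2 of 7, fibroblast and progenitor markers in 1 of 9 and testis germ cell markers in 1 of 9. Endothelial markers were higher in 2 and lower in 3 of 10, adipocyte markers higher in 1 and lower in 4 of 9. Hepatocyte markers were higher in 1 and lower in 2 of 8, and their sum did not overlap, at 13050 to 15490 units on chow arrays and 3725 to 7540 on high-fat arrays. The T and NK cell sum did not overlap either, at 1150 to 1286 against 1594 to 3041 units. The part of these cell types in the cell cycle result was not tested.

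In knockout fat on vehicle no diet change was called. On the high-fat diet against chow, 0 of the 42 genes were called in limma and 0 had an unadjusted p under 0.05; 0.00522% of all genes were called. The median was 0.02, with changes from -0.25 to 0.33. Ndc80 had the smallest p (0.27 ± 0.13, limma adjusted p = 0.713). Cdk1 read 6.65, 6.80 and 6.57 on the 3 high-fat arrays and 6.66, 6.33, 6.47, 6.61 and 6.73 on the 5 chow arrays, and Tk1 read 6.67, 6.51 and 6.44 against 6.50, 6.26, 6.25, 6.45 and 6.42. Both pairs of groups overlapped. For 2 genes every high-fat knockout array lay above every chow knockout array, against 2.12% of all genes: Rrm2 read 4.79, 5.07 and 4.8 against 4.37 to 4.78 (0.33 ± 0.21, limma adjusted p = 0.841), and Cdc20 read 6.88, 6.97 and 6.82 against 6.47 to 6.81 (0.24 ± 0.19, 0.904). Macrophage and lipid-associated macrophage markers were called in 0 cases as well, with a macrophage sum of 11320 to 11950 units in high-fat knockout vehicle fat.

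**Figure D3:**
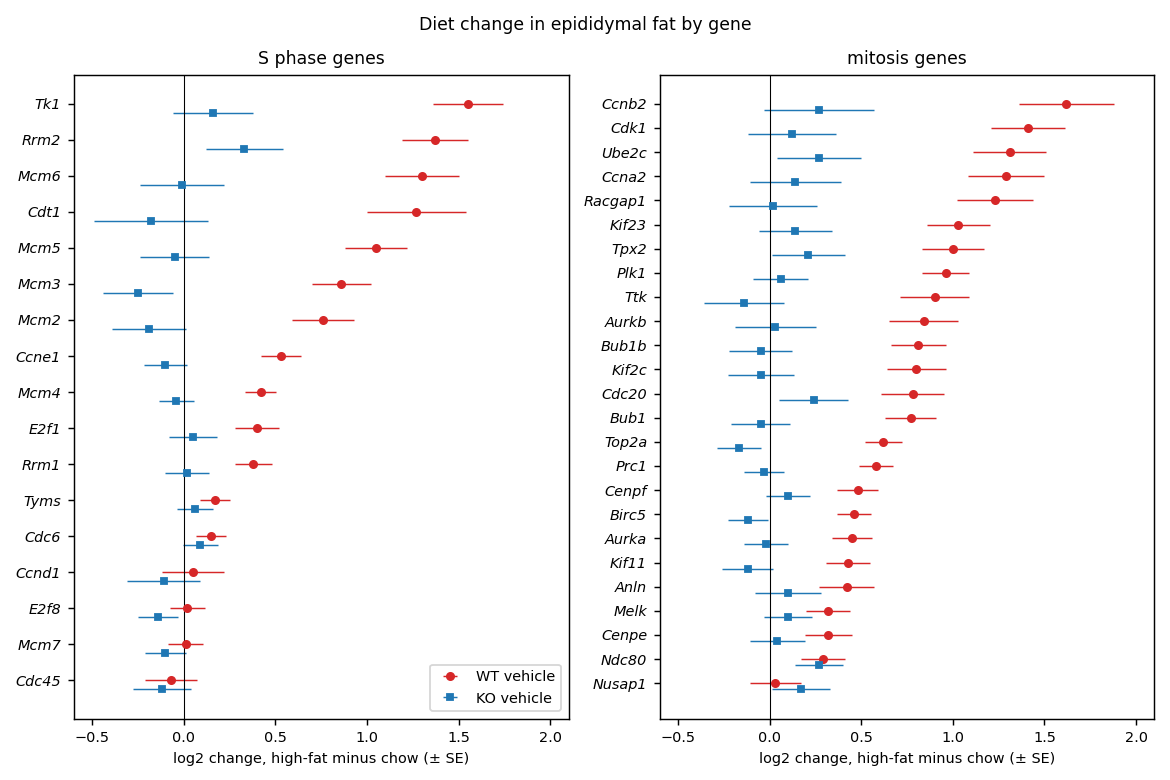
Log2 change on the high-fat diet against chow for each of the 17 S phase genes (left) and 25 mitosis genes (right) in vehicle-treated fat, with SE; red circles are wild-type and blue squares knockout mice. Wild-type changes reach 1.62 (Ccnb2) while knockout changes lie between -0.25 and 0.33.

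The difference of the diet effect between genotypes, tested directly, was called lower in knockouts for 23 of 42 genes, 9 S phase and 14 mitosis, against 3.46% of all genes. The largest differences were Cdt1 at -1.45 ± 0.41, Tk1 at -1.38 ± 0.29, Ccnb2 at -1.35 ± 0.40, Mcm6 at -1.31 ± 0.30 and Cdk1 at -1.29 ± 0.31, followed by Racgap1 at -1.21 ± 0.32, Ccna2 at -1.15 ± 0.32 and Mcm3 at -1.11 ± 0.25. Tk1, Mcm6, Cdk1 and Mcm3 were called with any 1 array left out, but Cdt1, Ccnb2 and Ccna2 were each lost without high-fat knockout array 43 or 44 or high-fat wild-type array 1 or 5. Cdt1 was also lost without high-fat knockout array 42 or chow wild-type array 1, and Ccna2 without chow knockout array 17 or chow wild-type array 4. Ccnb2 was also lost without chow knockout array 17 or 19 or chow wild-type array 1, 4 or 5. The adjusted p (limma) then reached 0.0662 for Cdt1, 0.103 for Ccnb2 and 0.0939 for Ccna2, and Racgap1 was lost without high-fat knockout array 44 (0.0764). Top2a, Mcm2 and Rrm2 differed by -0.79 ± 0.16, -0.95 ± 0.26 and -1.04 ± 0.27. Mcm2 was lost without high-fat knockout array 43 or high-fat wild-type array 1, and Rrm2 without high-fat knockout array 42 or 44. Ccnd1 (-0.17 ± 0.27, limma adjusted p = 0.784) was not called, and turned to 0.13 as the mean of its 2 probe sets. The count fell to 10 without high-fat knockout vehicle array 44, to 14 without high-fat wild-type vehicle array 1 and to 15 without array 5; it was 25 without the 4 arrays with epididymis or testis markers.

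A direct comparison of knockout with wild-type fat on the high-fat diet and vehicle, which shares the high-fat wild-type arrays with the diet comparison, called 28 of 42 genes lower and 0 higher; 8.70% of all genes were called lower. The genes were 10 of 17 in S phase and 18 of 25 in mitosis, with a median of -0.66. Ccnb2 was lower by -1.51 ± 0.30, Tk1 by -1.41 ± 0.22, Ccna2 by -1.31 ± 0.25, Cdk1 by -1.29 ± 0.24, Mcm5 by -1.27 ± 0.19, Mcm6 by -1.27 ± 0.23, Cdt1 by -1.26 ± 0.31 and Ube2c by -1.25 ± 0.23. Top2a was lower by -0.68 ± 0.12, Mcm2 by -1.05 ± 0.20 and Rrm2 by -1.06 ± 0.21, while Ccnd1 was at -0.55 ± 0.20 (limma adjusted p = 0.0601). Of the other replication genes 12 of 23 were lower and of other mitosis genes 20 of 32, with Spc25 at -2.24 ± 0.35. In the same comparison 11 of 14 macrophage and 8 of 11 lipid-associated macrophage markers were lower, 1 of the latter was higher, and 6 of 8 mesothelial markers were higher. On chow, 0 of the 42 genes differed between genotypes in vehicle-treated fat (limma; 3 had an unadjusted p under 0.05, and 0.0575% of all genes were called), with Birc5 nearest at 0.22 ± 0.092 (limma adjusted p = 0.454).

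In high-fat wild-type fat, AM251 was compared with vehicle to ask whether the drug changes these genes while the diet goes on. Of the 42 genes 1 was called lower, Ccne1 at -0.52 ± 0.11 (limma adjusted p = 0.0115), and 0.632% of all genes were called lower. The 5 AM251 arrays read 6.89, 6.91, 6.48, 6.42 and 6.46 for Ccne1, against 6.84 to 7.39 on vehicle, so the groups overlapped slightly. Changes were below 0 for 38 of the 42 genes (median -0.23) and 13 had an unadjusted p under 0.05, while over all genes the median was -0.01. These genes varied together between arrays of a group, so the 38 and the 13 are not separate observations of the drug. The share of all genes with an unadjusted p under 0.05 is not given beside the 13, which are not read as a drug effect. Tk1 was at -0.63 ± 0.19 (limma adjusted p = 0.0931), Mcm2 at -0.56 ± 0.17 (0.104), Top2a at -0.39 ± 0.10 (0.0518), Rrm2 at -0.27 ± 0.18 (0.559), Cdk1 at -0.21 ± 0.20 (0.736) and Ccnd1 at -0.02 ± 0.17 (0.978). The count rose to 8 without AM251 array 34, rose to 4 without vehicle array 3 and fell to 0 without AM251 array 35, without array 37, or without the 4 arrays with epididymis or testis markers. Macrophage markers were lower in 1 of 14 cases and lipid-associated macrophage markers in 0 of 11. Of the inhibitors, Cdkn2b and Cdkn2c were lower, by -0.93 ± 0.20 and -0.79 ± 0.17.

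Array 34 carried the highest value for 32 of the 42 genes among the 5 AM251 arrays, and array 37 the lowest for 30. Their mitosis means were 6.22 and 5.40, and their macrophage sums, 28010 and 14690 units, were likewise the highest and lowest of the group. In the other 3 fat groups given AM251 the drug comparison called 0 of 42 genes in limma. In high-fat-fed knockouts 0 had an unadjusted p under 0.05 (0% of all genes called; Cdc20 nearest, -0.37 ± 0.19), in chow-fed wild-type mice 2 (0%; Anln nearest, 0.45 ± 0.15) and in chow-fed knockouts 1 (0.0157%; Cenpe nearest, -0.35 ± 0.15). The AM251 effect on the high-fat diet was not called different between genotypes for any of the 42 genes in limma (9 at an unadjusted p under 0.05; 0.407% of all genes called), with Ccne1 nearest at -0.64 ± 0.16 (limma adjusted p = 0.0703). That count reached 3 without AM251 array 34, 2 without vehicle array 3 and 1 without AM251 array 33.

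The diet and genotype comparisons were repeated in the AM251-treated arrays of fat, which share no array with the vehicle comparisons; this was chosen after the data were seen. In wild-type mice 21 of 42 genes were higher on the high-fat diet, 7 S phase and 14 mitosis, against 4.76% of all genes, with a median of 0.35. All 21 were among the 33 called under vehicle, that is 100% of the shorter and 63.6% of the longer list. The vehicle and AM251 comparisons of fat take each gene's spread from the same fit of 8 groups, so their lists are not independent. With 33 of 42 called under vehicle, much overlap is expected in any case. Tk1 was higher by 1.05 ± 0.19, Cdk1 by 1.03 ± 0.20, Ccnb2 by 0.95 ± 0.26, Cdt1 by 0.91 ± 0.27, Ccna2 by 0.88 ± 0.21, Ube2c by 0.87 ± 0.20, Racgap1 by 0.86 ± 0.21 and Rrm2 by 0.82 ± 0.18. Mcm2 was higher by 0.54 ± 0.17, whereas Top2a was at 0.18 ± 0.10, Ccnd1 at 0.32 ± 0.17 and Ccne1 at 0.06 ± 0.11, none of them called. The count was 7 without high-fat array 34, 12 without chow array 10, 13 without chow array 12 and 8 when only the 2 groups entered the fit; it was 23 without the 4 arrays with epididymis or testis markers. Lipid-associated macrophage markers were higher in 8 of 11 cases and macrophage markers in 3 of 14.

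**Figure D4:**
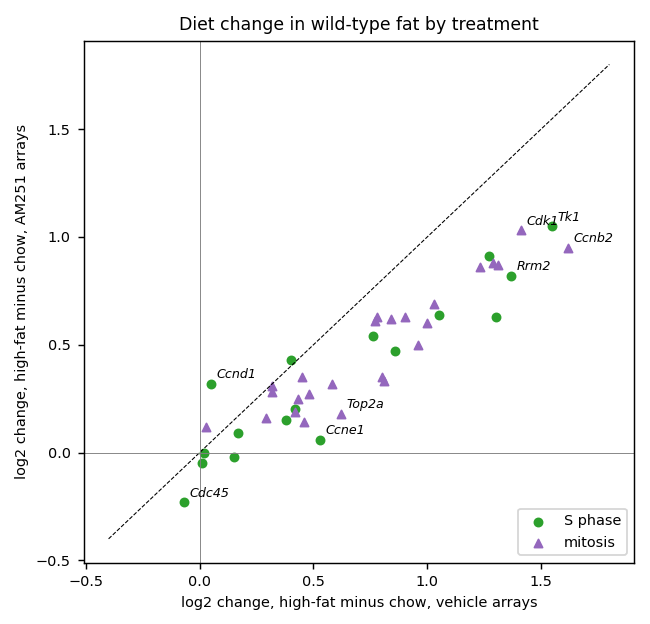
Log2 change on the high-fat diet against chow in wild-type fat for each of the 42 genes, in vehicle arrays (horizontal) and in AM251 arrays (vertical); the dashed line marks equal change. Ccnb2, for example, lies at 1.62 and 0.95, and Ccne1 at 0.53 and 0.06.

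In AM251-treated knockouts the diet comparison in fat called 0 of 42 genes in limma (4 at an unadjusted p under 0.05; 0.81% of all genes called), with Cenpe nearest at 0.45 ± 0.15 (limma adjusted p = 0.174). Knockout against wild-type fat, both on the high-fat diet and AM251, called 18 genes lower and 0 higher (6.99% of all genes lower), 5 in S phase and 13 in mitosis. The largest were Cdk1 at -1.08 ± 0.20, Ccnb2 at -1.04 ± 0.26, Cdc20 at -0.85 ± 0.17, Rrm2 at -0.85 ± 0.18, Ccna2 at -0.82 ± 0.21, Kif23 at -0.80 ± 0.17, Tk1 at -0.79 ± 0.19 and Mcm6 at -0.72 ± 0.20. Of the 18, 15 were also lower under vehicle (83.3% of these and 53.6% of the 28). Cdc20, Melk and Anln were the others. These lists too take each gene's spread from the same fit. With 28 of 42 called under vehicle, much overlap is expected in any case. Mcm2 (-0.48 ± 0.17), Ccnd1 (-0.26 ± 0.17) and Top2a (-0.07 ± 0.10) were not called, and Top2a turned to 0.04 without array 34. The count was 11 without array 34 and 25 without the 4 arrays with epididymis or testis markers. Macrophage markers were lower in 8 of 14 and lipid-associated macrophage markers in 9 of 11 cases.

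The diet effect in wild-type mice on vehicle differed between tissues for 26 of 42 genes, all higher in fat than in liver (6.85% of all genes), 9 in S phase and 17 in mitosis. Tk1 differed most, at 2.26 ± 0.25, having risen in fat and fallen in liver, followed by Ccnb2 at 1.67 ± 0.29, Ccna2 at 1.30 ± 0.26, Ube2c at 1.27 ± 0.22, Cdk1 at 1.18 ± 0.24, E2f8 at 1.13 ± 0.35, Tpx2 at 1.02 ± 0.20 and Cdt1 at 1.00 ± 0.33. Top2a differed by 0.84 ± 0.14 and Rrm2 by 0.81 ± 0.28. Mcm2 (0.51 ± 0.26) and Ccnd1 (-0.07 ± 0.27) were not called. Mean levels lay above the array median for 9 of 25 mitosis genes in liver and 15 of 25 in fat. For S phase genes this was so for 14 and 13 of 17. Tpx2 and Top2a stood at percentile 4.88 and 12.47 of all genes in liver, and 13.31 and 17.56 in fat. The part of low signal in the tissue difference was not tested. Tk1 was the brightest of the 42 genes in liver, at percentile 87.47 of all genes, and stood at percentile 54.93 in fat. E2f8 was taken here from the probe set that is brightest over both tissues, which is not the one used for fat, and its call was lost as the mean of both probe sets (limma adjusted p = 0.143) and without chow liver array 5 (0.0847). Rrm2 was likewise lost without liver high-fat array 1 or 5 or fat high-fat array 1 or 5, among others, and Cdt1 without fat high-fat array 1 or 5, among others. The count was 14 when genes below the 40th percentile of mean intensity were left out. That filter removed dim members as well, so fewer than 42 were tested.

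In liver, 2 of the 42 genes changed with the diet in wild-type mice on vehicle, in opposite directions. Tk1 fell by 0.71 ± 0.16 (limma adjusted p = 0.0101; 0.58% of all genes were called lower), reading 8.36, 7.79, 8.27, 7.82 and 8.32 on high-fat arrays against 8.85, 8.91, 8.53, 8.88 and 8.95 on chow arrays, with no overlap. Cdc20 rose by 0.58 ± 0.16 (limma adjusted p = 0.0435; 1.11% called higher), reading 5.80, 6.95, 5.93, 5.61 and 5.55 against 5.40, 5.54, 5.32, 5.19 and 5.48. Of the 42 genes, 1 (Cdc20) lay wholly above the chow arrays and 2 wholly below, against 1.67% and 1.24% of all genes. Neither Tk1 nor Cdc20 was called without high-fat array 2: Tk1 was then at -0.63 (limma adjusted p = 0.053), and Cdc20 was at 0.34 (0.205). Without high-fat array 3, or chow arrays 1, 3 or 4, 1 gene was called. Rrm2 was at 0.56 ± 0.21, Mcm2 at 0.26 ± 0.19, Cdk1 at 0.23 ± 0.12, Ccnd1 at 0.13 ± 0.19 and Top2a at -0.22 ± 0.098, none of them called.

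AM251 moved the same 2 genes the opposite way in wild-type liver on the high-fat diet, in a comparison that shares the high-fat vehicle arrays, and raised E2f8. Tk1 read 8.62, 8.95, 9.24, 8.51 and 8.88 after AM251 and rose by 0.72 ± 0.16 (limma adjusted p = 0.00548), and E2f8 read 5.88, 5.79, 6.59, 5.68 and 5.56 against 4.36, 4.55, 4.37, 5.10 and 5.18 and rose by 1.19 ± 0.31 (limma adjusted p = 0.0274). For both, every AM251 array lay above every vehicle array. This was also so for Cdt1, which went from a mean of 4.92 to 5.58 and was not called, and for 2.02% of all genes. Of all genes 0.888% were called higher. Cdc20 fell by 0.75 ± 0.16 (limma adjusted p = 0.00338; 1.02% called lower), from 5.55 to 6.95 on vehicle to 5.06, 5.00, 5.26, 5.35 and 5.40. The second probe sets did not follow: Cdc20 went from 5.53 ± 0.18 to 5.57 ± 0.22 and E2f8 from 5.27 ± 0.19 to 5.19 ± 0.24 (SD, n = 5 each). With the mean of a gene's probe sets only Tk1 was called, and Cdc20 was lost when only the 2 groups entered the fit (limma adjusted p = 0.105). E2f8 was lost without any 1 of vehicle arrays 1, 2 or 3 or AM251 arrays 33 or 37 (limma adjusted p = 0.0522 to 0.118). Rrm2 (-0.47 ± 0.21), Mcm2 (-0.35 ± 0.19), Ccnd1 (0.35 ± 0.19), Cdk1 (-0.31 ± 0.12) and Top2a (0.12 ± 0.098) were not called, and of the other replication, mitosis, inhibitor and G1 lists 0 genes were called in limma.

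E2f8 was the only 1 of the 42 genes whose AM251 effect in liver on the high-fat diet differed between genotypes in limma, at 2.04 ± 0.45 (limma adjusted p = 0.0181; 0.193% of all genes called higher). In knockouts it read 5.19, 5.30, 6.51 and 5.60 on vehicle and 5.14, 4.38, 5.29, 4.76 and 4.44 on AM251. The call was lost without knockout vehicle array 42 (limma adjusted p = 0.086) and with the mean of both probe sets (0.0507). On chow its wild-type vehicle arrays alone ran from 4.43 to 6.58, a wider range than the change. AM251 changed 0 of 42 genes by limma in livers of high-fat-fed knockouts (4 at an unadjusted p under 0.05; 0.0104% of all genes called; Mcm7 nearest, -0.23 ± 0.081), chow-fed wild-type mice (7; 0%; Anln, -0.39 ± 0.10) and chow-fed knockouts (5; 0.125%; Tyms, -0.28 ± 0.083).

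**Figure D5:**
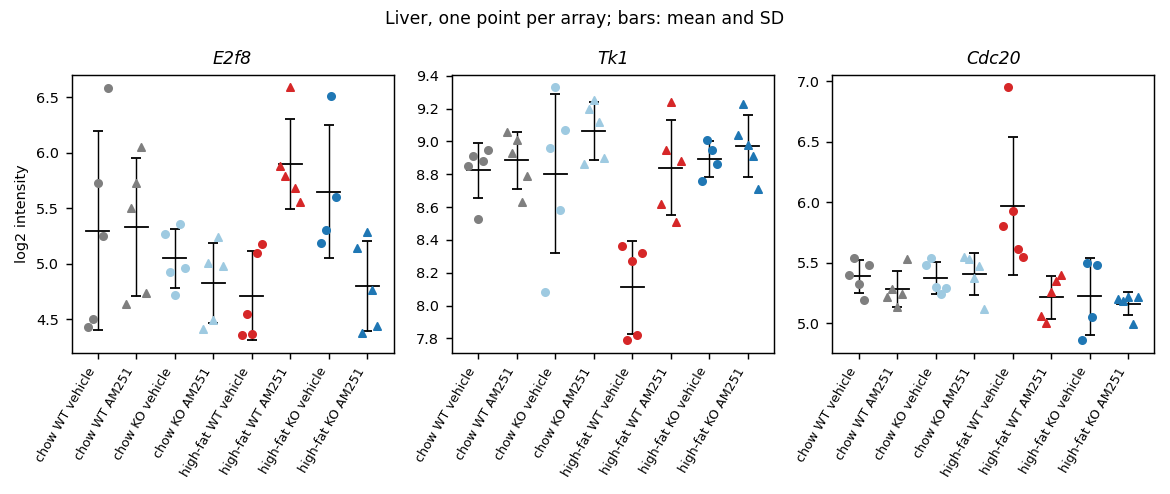
Log2 intensity of E2f8, Tk1 and Cdc20 on every liver array by diet, genotype and treatment (circles vehicle, triangles AM251), with group mean and SD; scales differ between panels. In the high-fat wild-type vehicle group Tk1 lies at 7.79 to 8.36, below 8.51 to 9.24 after AM251, and 1 Cdc20 array stands at 6.95.

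Between genotypes in liver on the high-fat diet and vehicle, Tk1 was higher in knockouts by 0.78 ± 0.17 (limma adjusted p = 0.00936; 0.48% of all genes higher) and Cdc20 lower by -0.75 ± 0.17 (limma adjusted p = 0.0138; 0.71% lower). This comparison, the wild-type diet comparison and the AM251 comparison in wild-type mice all share the 5 high-fat wild-type vehicle arrays. The knockout arrays read 8.76, 9.01, 8.95 and 8.86 for Tk1, above every wild-type array, and 4.86, 5.50, 5.05 and 5.48 for Cdc20, below every wild-type array. Of the 42 genes, 3 (Tk1, E2f8 and Cdt1) lay wholly above the wild-type arrays and 6 wholly below, against 2.92% and 2.74% of all genes. Neither Tk1 nor Cdc20 was called without wild-type array 2 (limma adjusted p = 0.057 and 0.0526), and only Tk1 without knockout array 40 or 42. Ccnd1, Cdk1, Mcm2, Rrm2 and Top2a were not called. On chow, 0 of 42 genes differed by limma (6 at an unadjusted p under 0.05) although 6.77% of all genes did; Bub1 was nearest at 0.24 ± 0.080 (limma adjusted p = 0.0583). That count was 2 without chow knockout array 16 or 18 and 1 without chow wild-type array 5.

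In knockout liver the high-fat diet lowered 4 of 42 genes; 8.36% of all genes were called lower, a share near that of the members. These were Racgap1 at -0.35 ± 0.091, Aurka at -0.42 ± 0.11, Ccna2 at -0.44 ± 0.16 and Tyms at -0.25 ± 0.088. As the mean of its probe sets, Racgap1 was at -0.07 and not called (limma adjusted p = 0.465). Ccnd1 had a larger fall, -0.56 ± 0.20, but was not called (limma adjusted p = 0.0538). Both of its probe sets fell, from 8.15 to 7.59 and from 7.56 to 7.05. It was called in 5 alternatives, among them quantile normalization (limma adjusted p = 0.013). Rrm2 (0.24 ± 0.22), Mcm2 (-0.22 ± 0.20), Cdk1 (-0.12 ± 0.12) and Top2a (-0.09 ± 0.10) were not called. Aurka, the spindle pole kinase, ran from 4.96 to 5.16 on 4 high-fat arrays and from 5.12 to 5.69 on 5 chow arrays, an overlap of small size. The count was 2 without high-fat knockout array 40 or 42 and 0 when only the 2 groups entered the fit. The diet effect differed between genotypes for Tk1 (0.80 ± 0.23, limma adjusted p = 0.0385; 2.84% of all genes higher), Aurka (-0.50 ± 0.15, 0.0462) and Racgap1 (-0.43 ± 0.13, 0.041; 1.33% lower). As the mean of its probe sets, the Racgap1 difference was -0.19 and not called (limma adjusted p = 0.263). None of these 3 was called without knockout high-fat array 40, 42 or 44 or wild-type high-fat array 2 or chow array 5.

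Members of a class varied together more in fat than in liver within groups. After group means were removed, the correlation of a gene with the mean of the rest of its class over 36 fat arrays had a median of 0.70 for mitosis genes and 0.47 for S phase genes, from -0.04 for Nusap1 to 0.94 for Ccnb2 among the former. Over 39 liver arrays the medians were 0.23 and 0.08. Tk1 was at -0.09 in liver, the lowest of the S phase genes there, and at 0.86 in fat. Its liver changes thus did not go with those of its class within groups, and the reason was not tested. Fewer mitosis genes had mean levels above the array median in liver (9 of 25) than in fat (15 of 25). The part of low signal in these correlations was not tested. In the 26 fat arrays outside the high-fat wild-type groups the medians were 0.41 and 0.33. These describe arrays that share a tissue piece and a hybridisation for all genes. The genes least tied to their class in fat, Nusap1 and Ndc80 in mitosis and Tyms, Cdc6 and E2f8 in S phase, were among the 9 not called with the diet. These lay below the array median in fat: mean levels stood at percentile 8.08, 3.47, 18.47, 2.02 and 33.91 of all genes, in the same order. Bub1, at percentile 7.56, was called and had a correlation of 0.76. Birc5, Tpx2, Ttk, Top2a and Rrm2, at percentile 9.56, 13.31, 15.81, 17.56 and 33.43, were called too. Their correlations were 0.57, 0.77, 0.61, 0.63 and 0.63. The part of low signal in either trait was not tested.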

How the data were processed

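Liver and epididymal fat RNA was measured on one-colour custom arrays. The values are linear intensities that the authors deposited after RMA, per the submitters' processing notes, which state no version. RMA sets arrays to a common distribution, so a shift of most genes at once could be hidden. Each array was matched to its group by its labels; 0 columns of values were left unused. Of 38385 probe sets, 24478 had 1 gene symbol, 65 several, and 13842 were not listed; 3958 genes had several probe sets and were taken from the one with the highest mean in that tissue. Intensities were turned to log2 and fitted with limma 3.58.1 in R 4.3.3, with 1 mean per group over the 8 groups of a tissue, or 16 for fat against liver, and Benjamini-Hochberg adjustment over 19147 genes. The number of arrays limits the precision. The fit was tested on simulated data. Members, gene lists and comparisons were chosen with earlier results of these data known. Top2a, Cdk1, Ccnd1, Mcm2 and Rrm2 were named in most comparisons with a called member. So were up to 8 called members with the largest rise or fall, and at most 4 genes of each other list. Where none was called, the member with the smallest p was named. Alternatives changed the probe set rule, normalization, filter, weights, offset, prior, samples in the fit and left-out arrays. Chow and high-fat wild-type vehicle mice sharing a number were not treated as paired, since their deviations within a tissue correlated by -0.17 to 0.22. Liver and fat arrays of the same group and number may come from 1 mouse. The main fit of fat against liver treated them as independent, and a fit with that number as a random block is given below.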

Additional observations from a re-analysis of the deposited data

Results flagged for a closer look

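Among the class means and 14 of the named genes, 11 of 224 group and gene combinations of 4 to 10 arrays had 1 array far from the others. Chance gives about 1 in 20. The other genes were not screened in this way. In fat, chow wild-type AM251 array 11 was apart for the mitosis mean (5.50, nearest 5.28) and for Cdk1 (7.26, nearest 6.68). High-fat knockout AM251 array 45 was apart for Tk1 (6.80, nearest 6.51), chow knockout vehicle array 16 for Mcm6 (6.03, nearest 6.78) and high-fat wild-type AM251 array 34 for Ccnd1 (10.25, nearest 9.77). In liver, chow wild-type vehicle array 3 was apart for Tk1 (8.53, nearest 8.85), array 4 of that group for Ube2c (4.73, nearest 5.10) and chow knockout vehicle array 17 for Ccnd1 (7.25, nearest 8.23). High-fat wild-type AM251 array 38 was apart for Ube2c (5.23, nearest 4.97), high-fat knockout AM251 array 48 for Cdc20 (4.99, nearest 5.18) and high-fat wild-type vehicle array 2 for Cdc20 (6.95, nearest 5.93).

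Differences of an effect between groups, each tested as an interaction in limma, were called as follows. The diet effect differed between genotypes in fat for 23 genes, all lower in knockouts, and in liver for 1 higher and 2 lower. The AM251 effect on the high-fat diet differed between genotypes in liver for 1 gene, E2f8, higher in wild-type mice. The diet effect differed between tissues for 26 genes, all higher in fat.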

How the results depend on the processing

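Of 483 recomputed counts and motif shares, 424 stayed within 1.5 times the value reported. With single arrays left out, the count of called genes for the diet effect in knockouts minus wild-type ran from 10 to 26 in fat and from 0 to 3 in liver. For AM251 in high-fat wild-type fat it ran from 0 to 8, and for the AM251 effect between genotypes from 0 to 3 in fat and from 0 to 1 in liver. For knockout against wild-type it ran from 11 to 26 in high-fat AM251 fat, from 0 to 2 in high-fat liver and from 0 to 2 in chow liver. For diet it ran from 7 to 23 in wild-type AM251 fat, from 0 to 3 in wild-type liver and from 2 to 5 in knockout liver. The mean of all probe sets gave 1 for AM251 in high-fat wild-type liver and 0 for its difference between genotypes. Median centring and the filter on dim genes each gave 2 for diet in knockout liver. The filter gave 14 for fat minus liver and 1 for the AM251 difference in fat. It removed members below the 40th percentile before the test. In liver Tyms, Ccna2 and Racgap1, at percentile 13.99, 31.15 and 39.5, were thus not tested, while Ccnd1 became called for diet in knockouts (limma adjusted p = 0.0438). AM251 in high-fat wild-type fat gave 2 with quantile normalization, median centring, array weights or an offset of 8, and 0 without the arrays with epididymis or testis markers, a choice made after seeing the data. Array weights gave 6 for genotype in high-fat liver and 1 for the AM251 difference in fat, and a trended robust prior gave 1 for genotype in chow liver. Fits of only the compared groups gave 0 for diet in knockout liver, for its difference between genotypes in liver and for AM251 in high-fat wild-type fat, 1 for diet in wild-type liver and 8 for diet in AM251 fat. CHR matches fell to 34.8% of mitosis windows with 250 bases alone. With a replicate block on shared sample numbers, which do not pair the mice, diet called 1 gene in wild-type liver and 27 in fat, against 1 and 30 in the same samples with no replicate block; fat minus liver with animal as a random block gave 26. Ccnd1 turned to -0.16 for diet in wild-type fat and to 0.13 for its difference between genotypes with the mean of probe sets, and Top2a for genotype in AM251 fat ran from -0.17 to 0.04 with single arrays left out, turning without array 34. Of 2735 values of named genes, 2526 kept their side of the threshold, 169 lost the call, 37 gained it and 3 turned. A gene not called in the main fit was counted as turned only where its sign changed by more than 1 standard error. Smaller sign changes of such genes are among the 2526. Causes were not tested.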

Other observations

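Among groups with low cell cycle means in fat, 2 arrays stood high in both macrophage and mitosis gene values. High-fat knockout AM251 array 45 had Trem2 at 9.0 and Itgax at 9.08, where the other 4 arrays of its group had 6.73 to 6.93 and 6.94 to 7.41. Its macrophage sum was 15840 units, its mitosis mean 5.49, Cdk1 7.31 and Ccnb2 5.97. Its S phase mean, 6.69, was not the highest of the group: array 50 had 6.71 with a macrophage sum of 11440 units. Chow wild-type AM251 array 11 had Trem2 at 8.40, a macrophage sum of 15520 units, a mitosis mean of 5.50 and Cdk1 at 7.26. Its S phase mean was 6.72, the highest of its group, while chow knockout AM251 array 23 had 6.73. These arrays were picked out after their values were seen.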
